A study of Mus musculus with 39 samples.

Results

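The crush response of *Lepr*-cKO nerves at 4 weeks post crush (wpc) is described here from 9 RNA-seq libraries of distal sciatic nerve, 4 of injured (ipsilateral) and 5 of healthy (contralateral) nerves, out of 39 libraries from 22 mice in the whole series. The libraries were chosen by genotype and time from the sample labels. *Lepr*-cKO mice carried floxed *Lepr* alleles and Dhh-Cre (Lepr fl/fl::Dhh-Cre), a driver active in the Schwann cell lineage. Cells in which the driver was never active keep an intact receptor gene, and which cells these are was not measured here. *Lepr*-ctrl mice carried the floxed alleles without the driver. The mice were adults of both sexes aged 2 to 4 months on a C57BL/6 background. The sciatic nerve of 1 side was crushed at mid-femoral level, and the uncrushed nerve of the other side of the same mouse served as the healthy nerve. Per the study's methods the outer sheaths were stripped off and each library was made from the endoneurium of 1 nerve. How free the libraries were of sheath cells was not tested, and fat and perineurial transcripts are given below. Mice KO-169, KO-175, KO-176 and KO-177 gave both nerves, and mouse KO-179 gave a healthy nerve only. Comparisons use the *Lepr*-ctrl libraries at 4 wpc (4 injured, 5 healthy) and the *Lepr*-cKO libraries at 2 wpc (5 injured, 6 healthy), which share no library with the 9.

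As background, crush severs the axons of a nerve while its tubes of basal lamina stay in place. Schwann cells of the distal stump leave their myelinating state, become repair cells that express growth factors and immature cell genes, and break down myelin together with macrophages that enter from the blood. Axons then regrow and Schwann cells remyelinate them, which raises the demand for cholesterol and fatty acids. The leptin receptor is a cytokine receptor of the gp130 type that signals through JAK2 and STAT3.

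The healthy libraries held 22717084 to 42143173 counts on genes (median 27330034) and the injured libraries 15071347 to 25923752 (median 17552170.5), so that changes are known less precisely for genes of low counts in injured nerves. Of the 55573 genes in the deposited tables, 18442 had enough counts to be tested. A gene was called higher or lower where the fitted change exceeded 2-fold and the p-value of edgeR's quasi-likelihood test, adjusted over all 18442 genes by the Benjamini-Hochberg method, was below 0.05. Values per library are in CPM (counts scaled to a common library size), differences are log2 fold changes (log2FC) of injured over healthy nerves ± SE, and values of mice are always given in the order KO-169, KO-175, KO-176, KO-177 and, for healthy nerves, KO-179. The first principal component held 65.6% of the variance and separated all injured from all healthy libraries. The second held 10.5% and set the injured nerves of mice KO-169 and KO-177 at its opposite ends (50.8 and -75.4). The tissue label was met by myelin transcripts in every library, and *Mbp*, myelin basic protein of Schwann cells, stood at 24700, 22100, 23300, 14500 and 23700 CPM in healthy nerves and at 12700, 7740, 8720 and 5110 CPM in injured nerves. Since RNA came from all cells of the endoneurium, fewer cells of a type and less RNA per cell cannot be told apart.

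The targeted gene itself rose after crush. *Lepr* (ENSMUSG00000057722, GRCm38 chr4:101717404-101815352, plus strand) had 9.25, 6.12, 6.42, 11.3 and 8.49 CPM in healthy *Lepr*-cKO nerves. In the injured nerves it had 31.7, 29.8, 24.1 and 36.7 CPM. Every injured library lay above every healthy one, and the log2FC was 1.88 ± 0.32 (adjusted p = 7.17e-06). Counts were made over the whole gene, whereas the floxed allele lacks 1 exon after recombination and a shortened transcript can still be made, so that these counts do not check the deletion. The log2FC was 2.75 in *Lepr*-ctrl nerves at 4 wpc and 2.77 in *Lepr*-cKO nerves at 2 wpc, and the difference between genotypes did not pass the test (-0.87, adjusted p = 0.48).

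Crush changed a large share of the measured transcriptome of *Lepr*-cKO nerves at 4 wpc. In all, 3094 genes were higher, 16.8% of those tested, and 1990 genes were lower, 10.8% of those tested. Of these, 1566 rose and 521 fell more than 4-fold. Injured and healthy libraries did not overlap at all for 2284 of the genes called higher and for 1715 of those called lower. Among all tested genes, called or not, the injured libraries lay above the healthy ones without overlap for 21.0% and below them for 20.9%. The median log2FC of all tested genes was 0.06, so that the lists of genes below are read against a centre close to 0. The shares of 16.8% and 10.8% are the background for each count of list members.

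The leading higher genes had the largest changes among called genes whose injured and healthy libraries did not overlap. Only well-expressed genes were taken, those past a log2 CPM of 3 on average. Several of the 12 are known from macrophages. *Atp6v0d2*, a proton pump subunit of macrophages and osteoclasts, went from 0.976, 0.952, 0.888, 0.95 and 1.19 CPM in healthy nerves to 78.6, 219, 118 and 311 CPM in injured nerves, a log2FC of 7.5 ± 0.6 (adjusted p = 3.1e-12). The range of the injured nerves was wide, and the gap to the healthy nerves follows from the way these genes were chosen. *Trem2*, a lipid-sensing receptor of macrophages, had 2.81, 4.32, 1.53, 2.12 and 4.12 CPM against 115, 127, 85.6 and 117 CPM (log2FC 5.2 ± 0.38, adjusted p = 3.37e-13). *Ctss*, the lysosomal protease cathepsin S, had 8.31, 10.6, 6.91, 11.9 and 14.7 CPM against 430, 327, 261 and 420 CPM (log2FC 5.1 ± 0.46, adjusted p = 3.56e-11). Both genes were high in all 4 injured nerves, lowest in mouse KO-176. *Mpeg1*, which encodes a pore-forming protein of macrophages, *Clec7a*, a receptor for beta-glucans, and *Lyz2*, lysozyme, rose by log2FC of 4.55 ± 0.36, 4.43 ± 0.37 and 4.31 ± 0.37. *Lyz2* has a near-identical neighbouring copy, and reads shared with it leave its level uncertain.

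*Gap43*, a protein of growing axons and of denervated Schwann cells, had 7.45, 7, 4.56, 7.9 and 4.94 CPM in healthy nerves and 129, 99.4, 82.5 and 192 CPM in injured nerves (log2FC 4.31 ± 0.23, adjusted p = 3.2e-16). *Sema4f*, a transmembrane semaphorin, had 2.15, 3, 2.62, 2.12 and 1.46 CPM against 120, 56.1, 55.1 and 56 CPM (log2FC 4.99 ± 0.26, adjusted p = 7.51e-17). *Postn*, a secreted matrix protein, had 7.8, 12.6, 9.05, 13.7 and 8.83 CPM against 632, 227, 221 and 189 CPM (log2FC 4.93 ± 0.39, adjusted p = 3.24e-12). For the latter pair the injured nerve of mouse KO-169 was far above the other injured nerves, which lay close together. *Fgd3*, an activator of Cdc42-type GTPases, *Aqp1*, a water channel, and *Clca3a1*, of a family that modulates chloride channels, rose by 5.99 ± 0.37, 4.81 ± 0.68 and 4.32 ± 0.48. *Clca3a1* has close paralogues, which makes its counts uncertain.

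**Figure D1:**
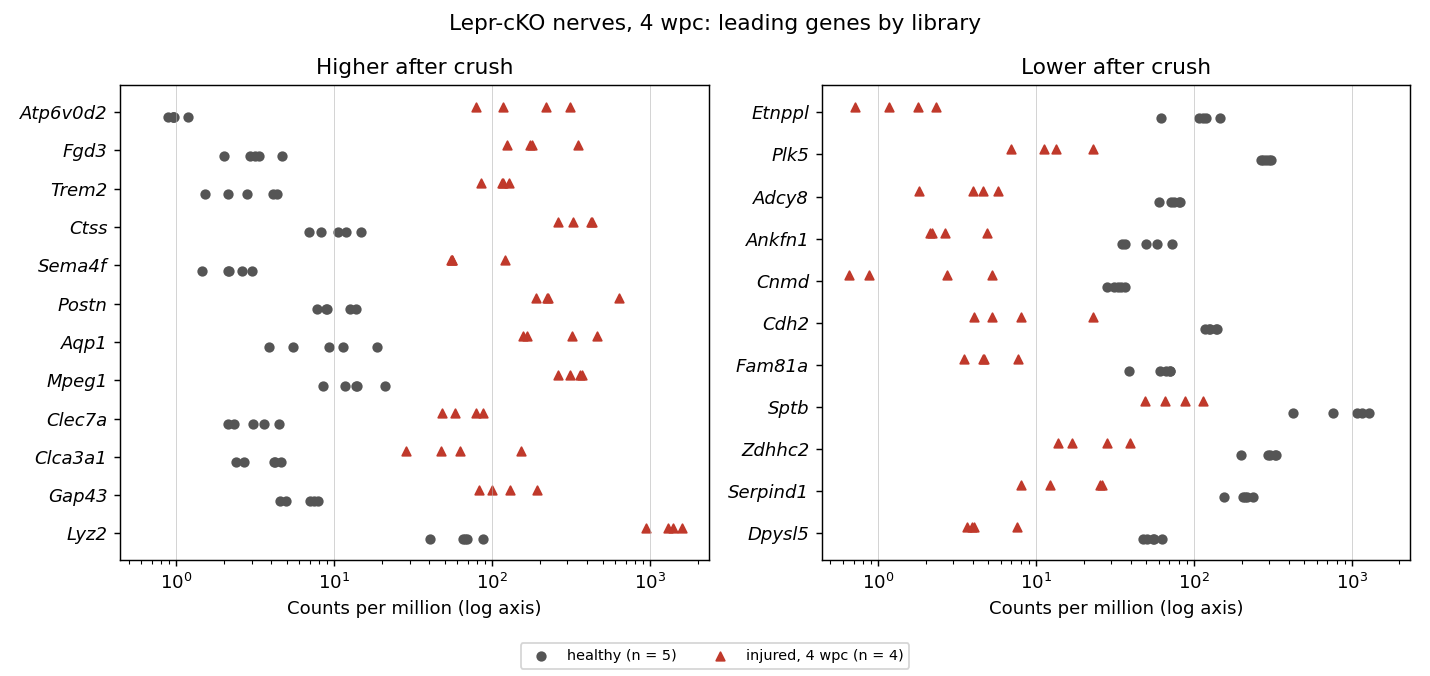
The horizontal axes give CPM on a log scale for 12 leading higher and 11 leading lower genes, 1 point per library (grey circles for 5 healthy and red triangles for 4 injured *Lepr*-cKO nerves at 4 wpc). The genes were picked because the groups do not overlap, so the gap between grey and red follows from the choice, and what the plot adds is the level and the spread, such as *Etnppl* at 0.711 to 2.33 CPM in injured nerves.

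Most of the leading lower genes, chosen in the same way and so without overlap of the libraries, encode enzymes, membrane and cytoskeletal proteins. *Etnppl*, an enzyme that degrades phosphoethanolamine (ENSMUSG00000019232, chr3:130617448-130637521, plus strand), had a median of 114 CPM in healthy nerves, lowest in mouse KO-177 with 62.1 CPM. It had 1.8, 0.711, 2.33 and 1.17 CPM in injured nerves, a log2FC of -6.16 ± 0.36 (adjusted p = 2.07e-15). It was nearly lost from all 4 injured nerves. *Plk5*, a member of the polo-like kinase family, had 265, 286, 306, 275 and 299 CPM against 13.3, 11.3, 22.8 and 6.98 CPM (log2FC -4.39 ± 0.37, adjusted p = 9.27e-12). *Cdh2*, the adhesion molecule N-cadherin, ranged from 117 to 139 CPM in healthy nerves against 22.8, 4.05, 8.02 and 5.28 CPM (log2FC -3.65 ± 0.45, adjusted p = 3.33e-08). The injured nerve of mouse KO-169 kept the most *Cdh2*, and that of mouse KO-176 the most *Plk5*. *Adcy8*, an adenylate cyclase, fell by 4.18 ± 0.39 and *Zdhhc2*, a palmitoyl transferase, by 3.56 ± 0.26 on the log2 scale. *Dpysl5*, of the collapsin response mediator family, fell by 3.48 ± 0.25, and *Sptb*, beta spectrin, by 3.57 ± 0.46. *Cnmd*, *Serpind1*, *Ankfn1* and *Fam81a* fell by 3.71 ± 0.39, 3.49 ± 0.43, 4.08 ± 0.36 and 3.57 ± 0.24. All 12 leading lower genes were also called lower in *Lepr*-ctrl nerves at 4 wpc and in *Lepr*-cKO nerves at 2 wpc.

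Myelin genes were still below their healthy level at 4 wpc, but to very different degrees. Of 18 myelin genes tested, 7 were called lower and none higher, with a median log2FC of -0.79. *Drp2*, which anchors dystroglycan outside compact myelin, had 4730, 4840, 5360, 3120 and 5010 CPM in healthy nerves and 1200, 864, 1330 and 885 CPM in injured nerves (log2FC -2.11 ± 0.27, adjusted p = 4.36e-08). *Prx*, periaxin, its partner in the same complex, had 9390, 8550, 9150, 5360 and 8870 CPM against 3610, 1770, 2530 and 1650 CPM (log2FC -1.79 ± 0.28, adjusted p = 1.92e-06). In both genes the groups did not overlap, although the healthy nerve of mouse KO-177 was the lowest of the healthy nerves. *Mbp* fell by 1.34 ± 0.28, *Ugt8a*, which makes galactosylceramide, by 1.31 ± 0.35, *Gjb1*, connexin 32, by 1.24 ± 0.28, *Mal*, a lipid raft protein, by 1.17 ± 0.23 and *Pmp2*, a lipid carrier of myelin, by 1.12 ± 0.34. *Pmp22*, a protein of compact myelin, had 23700, 23200, 22500, 18900 and 21600 CPM against 16100, 13200, 18200 and 8210 CPM and did not pass the test (log2FC -0.66 ± 0.3, adjusted p = 0.0582). The same 18 genes had medians of -1.73 in *Lepr*-ctrl nerves at 4 wpc, with 15 called lower, and of -1.47 in *Lepr*-cKO nerves at 2 wpc, with 14 called lower.

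The summed level of the 18 myelin genes was 130000, 120000, 119000, 95600 and 118000 CPM in healthy nerves. In injured nerves it was 86900, 59500, 74600 and 35200 CPM, highest in mouse KO-169 and lowest in mouse KO-177, and no injured nerve reached a healthy one. Regulators of the myelinating state went both ways. Of 14 Schwann cell differentiation factors 3 were called lower and none higher, with a median of -0.23 and 6 of the 14 fitted above 0, and without the injured nerve of mouse KO-169 the count of lower genes was 5, while without that of mouse KO-177 a gene was called higher. *Srebf2*, the transcription factor of sterol synthesis, fell by 2.22 ± 0.2, *Adgrg6*, an adhesion receptor needed for the start of myelination, by 1.11 ± 0.16, and *Egr2*, the master regulator of myelin genes, by 1.03 ± 0.25. *Egr2* lost its call when the injured nerve of mouse KO-177 or the healthy nerve of mouse KO-169 was left out (-0.84 and -0.95). *Sox10*, the lineage factor of Schwann cells, had 1040, 985, 967, 849 and 944 CPM in healthy nerves and 1010, 409, 491 and 297 CPM in injured nerves (log2FC -0.8 ± 0.25, adjusted p = 0.00712). It did not exceed a 2-fold change, and the injured nerve of mouse KO-169 lay within the healthy range.

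Genes of repair and immature Schwann cells were raised while myelin genes were low. Of 26 genes listed, 24 were tested, 16 were called higher and 4 lower, and the median log2FC was 2.07. *Olig1*, a transcription factor of injured Schwann cells, had 0.156, 0.293, 0.0404, 0.13 and 0.0992 CPM in healthy nerves and 95.1, 18.1, 12.2 and 21.7 CPM in injured nerves (log2FC 7.97 ± 0.61, adjusted p = 1.39e-12). *Btc*, the growth factor betacellulin, had 0.663, 1.72, 0.444, 0.648 and 0.943 CPM against 81.2, 18.7, 21 and 17.7 CPM (log2FC 5.27 ± 0.51, adjusted p = 2.16e-10). *Tnc*, tenascin C, had 16.4, 28.4, 24.6, 17.1 and 19 CPM against 647, 321, 217 and 280 CPM (log2FC 4.12 ± 0.31, adjusted p = 1.29e-12). In each of these the injured nerve of mouse KO-169 held the highest value, and the remaining injured nerves were still well above the healthy nerves. *Runx2*, a transcription factor, rose by 3.62 ± 0.23, *Id2*, an inhibitor of differentiation, by 2.9 ± 0.22, and *Jun*, the driver of the repair state, by 1.07 ± 0.22. *Jun* had 78.4, 59, 44.5, 58.4 and 63.3 CPM against 242, 95, 88.1 and 82.7 CPM. *Sox2*, a factor of immature Schwann cells, had a log2FC of 0.99 ± 0.25 and was not called. The members called lower were *Cdh2*, *Ncam1*, an adhesion molecule of immature and non-myelinating Schwann cells (-1.36 ± 0.2), *Lif*, a cytokine (-1.15 ± 0.2), and *Nrg1*, a growth factor of the ErbB receptors (-1.97 ± 0.42). *Lif* lost its call without the injured nerve of mouse KO-176 (-0.96).

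The summed level of the repair genes was 3070 CPM in the injured nerve of mouse KO-169 and 1190 to 1300 CPM in the other 3 injured nerves. *Ngfr*, the p75 neurotrophin receptor, was also highest in mouse KO-169, with 773 CPM there, 161 to 185 CPM in the other injured nerves and a median of 78.5 CPM in healthy nerves (log2FC 1.93 ± 0.37, adjusted p = 5.29e-05). Of 15 neurotrophic factors and receptors tested, 5 were called higher, 1 lower, and the median was 0.91. Their summed level was 716 to 871 CPM in healthy nerves and 1300, 514, 623 and 450 CPM in injured nerves. It was thus above the healthy range in mouse KO-169 and below it in the other mice. *Artn*, artemin, rose by 3.9 ± 0.39, *Bdnf* by 3.79 ± 0.67 and *Gdnf* by 3 ± 0.42. They stayed low in absolute terms. *Gdnf* had 0.546, 1.36, 0.444, 0.864 and 1.56 CPM against 12.5, 5.75, 5.38 and 7.43 CPM, and *Artn* reached 2.64 to 5.64 CPM. *Ntrk2*, the receptor of BDNF, fell by 1.62 ± 0.32, and 2 genes of the list were called lower without the injured nerve of mouse KO-169 or with the replicate block. *Gfra1*, a receptor of GDNF, was at -0.87 ± 0.17 and not called.

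Of 16 genes of the node of Ranvier and the paranode, 8 were called lower and none higher, and the median was -1.27, with 2 members fitted above 0. *Cntn1*, the paranodal adhesion molecule contactin, had 13.7, 18.9, 21.3, 23.8 and 17.8 CPM in healthy nerves and 0.331, 0.219, 0.203 and 0.391 CPM in injured nerves (log2FC -6.04 ± 0.47, adjusted p = 1.47e-12). All injured nerves were near its limit of detection. *Nfasc*, neurofascin, had 873, 1050, 1140, 872 and 1050 CPM against 237, 247, 333 and 246 CPM (log2FC -1.91 ± 0.19, adjusted p = 2.55e-10). *Scn8a*, a nodal sodium channel, fell by 1.46 ± 0.17 and *Kcna1*, a juxtaparanodal potassium channel, by 1.96 ± 0.4. *Ank3*, ankyrin G, and *Nrcam* fell by 1.27 ± 0.2 and 1.32 ± 0.23. Without the injured nerve of mouse KO-177, 1 gene of the list was called higher.

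Most cholesterol synthesis genes fell. Of 24 genes, 21 were called lower and none higher, where 10.8% of all genes were called lower, and the median log2FC was -1.78. *Sc5d*, the desaturase of a late step, had 281, 345, 339, 262 and 314 CPM against 38.5, 39.8, 42.6 and 38 CPM (log2FC -2.95 ± 0.19, adjusted p = 3.65e-14). *Hsd17b7*, a sterol reductase, had 120, 129, 139, 105 and 137 CPM against 15.4, 18.3, 19.1 and 12.4 CPM (log2FC -2.94 ± 0.23, adjusted p = 3.06e-12). In each of these genes all 4 injured nerves lay far below every healthy nerve. *Hmgcs1*, an enzyme early in the pathway, fell by 1.87 ± 0.3. *Sqle*, squalene epoxidase, fell by 2.64 ± 0.25 and *Insig1*, the sterol-dependent brake of the pathway, by 2.59 ± 0.19. *Mvk* (-0.8 ± 0.16) and *Acat2* (-0.86 ± 0.18) had adjusted p of 0.000102 and 0.000164 but missed the fold limit, and *Ebp* was at -0.22 ± 0.14. The medians were -2.68 in *Lepr*-ctrl nerves at 4 wpc, with 23 called lower, and -1.94 in *Lepr*-cKO nerves at 2 wpc, with 20 called lower.

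**Figure D2:**
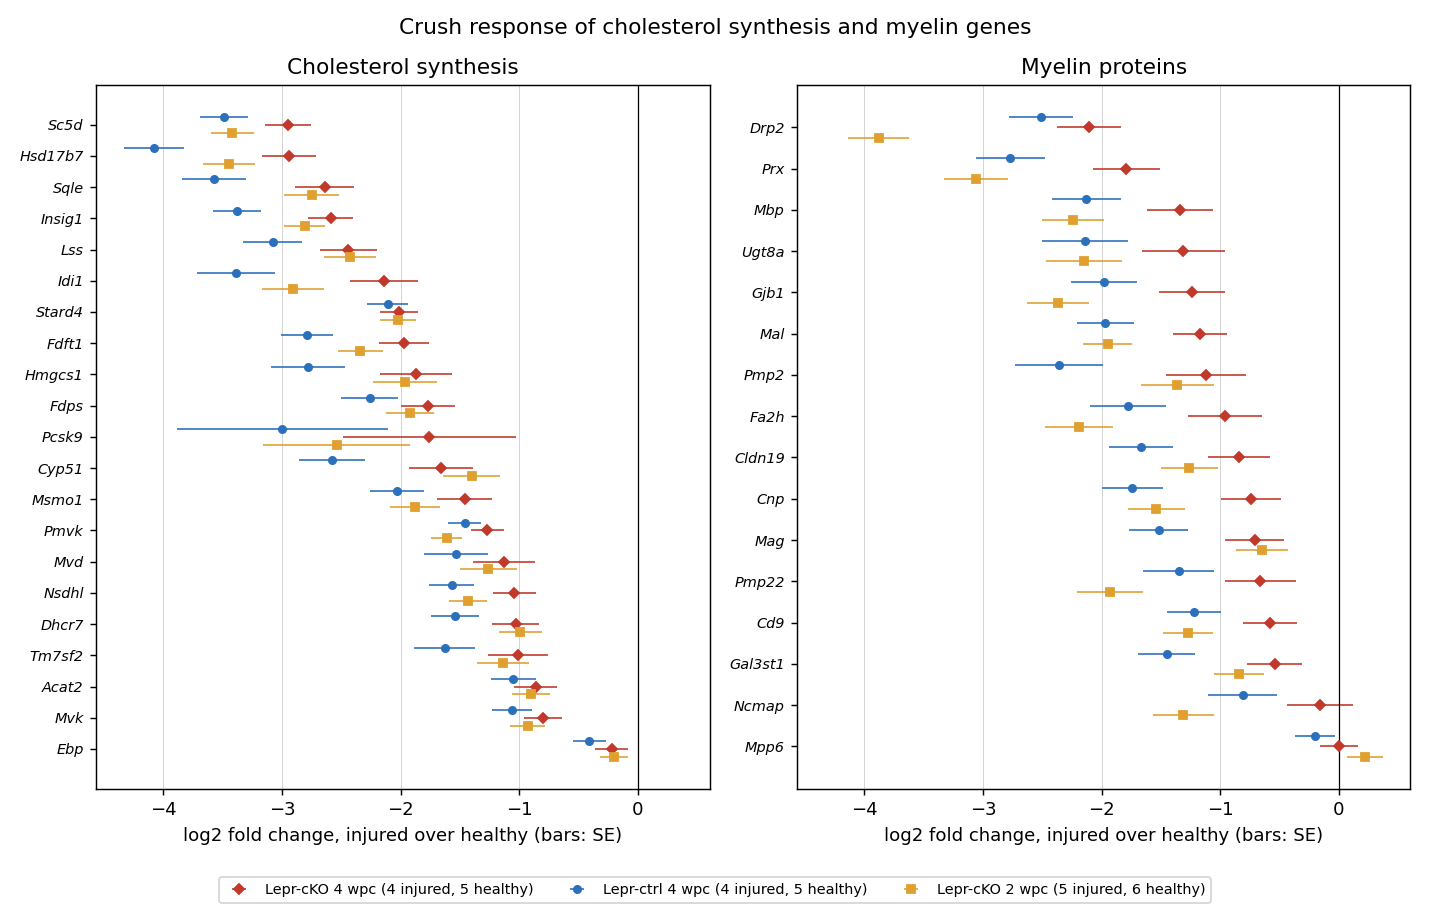
Each point is the log2 fold change of a gene, injured over healthy, with its SE as a bar, for 21 cholesterol synthesis genes (left) and 16 myelin genes (right) in 3 comparisons. Red diamonds (*Lepr*-cKO at 4 wpc) lie left of 0 for every cholesterol gene shown, from -2.95 for *Sc5d* to -0.22 for *Ebp*, while in the myelin panel they run from -2.11 for *Drp2* to 0 for *Mpp6*.

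Genes of sterol synthesis are known targets of SREBP-2, which *Srebf2* encodes and which binds sterol response elements. The windows of RefSeq promoters, from 250 bases before to 50 bases after the annotated start, were searched on both strands for the letters TCACNCCAC. They occurred in 1.43% of the 12722 tested genes with a promoter and in 1 of 16 cholesterol genes with one (6.25%). That match is shown with 10 bases on each side because *Hmgcs1* holds it, with the match in capitals, on the plus strand of GRCm38.p6 at chr13:119690204-119690232, and with the match starting 137 bases upstream of the start:
Hmgcs1: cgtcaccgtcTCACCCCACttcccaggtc
Elements of other spelling were not searched. The letters TGANTCA of AP-1 sites, the dimer to which JUN belongs, occurred in 6.8% of all tested genes with a promoter, in 10.8% of those called higher (213 of 1968) and in 7.61% of those called lower (96 of 1261).

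Fatty acid synthesis fell with sterol synthesis, with exceptions. Of 15 genes 7 were called lower and 1 higher, and the median was -0.92. *Acly*, which supplies cytosolic acetyl-CoA, had 223 ± 32.3 CPM (SD, n = 5) in healthy nerves and 93.9, 78.4, 83.6 and 93.8 CPM in injured nerves (log2FC -1.35 ± 0.11, adjusted p = 8.84e-12). *Me1*, malic enzyme, fell by 1.81 ± 0.19, *Fasn*, fatty acid synthase, by 1.51 ± 0.22, *Fads1*, a desaturase, by 1.49 ± 0.17 and *Elovl6*, an elongase, by 1.96 ± 0.3. *Scd2*, the abundant stearoyl-CoA desaturase of nerve, fell by 1.22 ± 0.25 from 5390, 6890, 6820, 4940 and 6280 CPM to 3760, 2110, 2970 and 1560 CPM. *Elovl5*, another elongase, was the only member called higher (1.15 ± 0.19), and without the injured nerve of mouse KO-169 none was called higher and the list median was -1.28. *Scd1*, the close relative of *Scd2*, was at 0.86 ± 0.21 and not called.

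Cell division genes were raised at 4 wpc. Of 30 tested, 18 were called higher and none lower, and the median was 1.24. *Cdk1*, the mitotic kinase, had 0.585, 0.586, 0.444, 0.389 and 0.546 CPM in healthy nerves and 5.11, 10.6, 3.91 and 2.35 CPM in injured nerves (log2FC 3.41 ± 0.4, adjusted p = 9.87e-09). *Top2a*, topoisomerase II alpha, had 1.6, 2.38, 1.66, 1.25 and 1.69 CPM against 16.6, 16.4, 7.97 and 4.89 CPM (log2FC 2.74 ± 0.35, adjusted p = 6.52e-08). *Mki67*, the marker of cycling cells, had 1.64, 4.47, 2.14, 1.64 and 2.65 CPM against 14.7, 15.5, 8.98 and 4.11 CPM (log2FC 2.11 ± 0.4, adjusted p = 3.47e-05). Mice KO-169 and KO-175 had the higher values in these genes and mouse KO-177 the lowest, whose *Mki67* fell within the healthy range. *E2f1*, a transcription factor of the entry into S phase, rose by 2.11 ± 0.18. The helicase genes of DNA replication changed little, with *Mcm3*, *Mcm5* and *Mcm6* at 0.46 ± 0.15, 0.42 ± 0.17 and 0.37 ± 0.13 and none called. The list median was 0.77 in *Lepr*-ctrl nerves at 4 wpc (7 called higher) and 2.24 in *Lepr*-cKO nerves at 2 wpc (24 called higher).

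The E2F letters TTTCGCGC or TTTGGCGC occurred in 4 of the 24 cell division genes with a promoter (16.7%), in 1.58% of all tested genes with one and in 1.17% of those called higher. These 4 were *Cdk1* and *Mcm3*, *Mcm5* and *Mcm6*, of which *Cdk1* was the one called. Windows of 3 of them are shown to set the called gene beside uncalled ones, with the match in capitals and 10 bases on each side, read along the gene. They lie in GRCm38.p6 at chr10:69353026-69353053 (*Cdk1*, minus strand), chr8:75109346-75109373 (*Mcm5*, plus strand, 153 bases upstream) and chr1:128359735-128359762 (*Mcm6*, minus strand, 47 bases upstream):
Cdk1: ttccgctcccTTTCGCGCtctgcgctcc
Mcm5: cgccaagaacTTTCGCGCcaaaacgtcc
Mcm6: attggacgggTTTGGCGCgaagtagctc
The promoters of *Mcm5* and *Mcm6* held further matches that are not marked here, and that of *Mcm5*, on the opposite strand, overlaps the match shown. A match is a description of the letters, and binding was not measured.

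Macrophage genes were the group with the highest median. Of 18 tested, 16 were called higher and 1 lower, and the median log2FC was 3.28 (3.31 in *Lepr*-ctrl nerves at 4 wpc and 2.57 in *Lepr*-cKO nerves at 2 wpc). *Aif1*, the microglia and macrophage protein IBA1, had 1.8, 1.72, 1.29, 1.77 and 1.54 CPM in healthy nerves and 14.8, 37.9, 19.5 and 42.1 CPM in injured nerves (log2FC 4.13 ± 0.31, adjusted p = 8.18e-13). *C1qb*, a chain of the complement starter C1q, had 30.9, 19.2, 15.7, 16.5 and 30.3 CPM against 242 ± 54.8 CPM (SD, n = 4) (log2FC 3.42 ± 0.28, adjusted p = 5.65e-12). *Adgre1*, which encodes F4/80, had 9.4, 6.96, 4.93, 4.32 and 9.25 CPM against 50.4, 49.6, 37.1 and 65.7 CPM (log2FC 2.85 ± 0.32, adjusted p = 5.89e-09). In none of the 3 did injured and healthy nerves overlap. *Laptm5*, a lysosomal protein of blood cells, and *Cd68*, a lysosomal protein of macrophages, rose by 3.53 ± 0.26 and 3.82 ± 0.33. *Mertk*, a receptor for dying cells, fell by 1.18 ± 0.25. The summed level of the list was 2230 CPM in the injured nerve of mouse KO-176 and above that in the other injured nerves.

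Genes listed for phagocytes that handle lipid were raised in the injured nerves, and which cells held these transcripts was not measured. Of 24 genes 19 were called higher and none lower, with a median of 2.32. *Abca1*, the cholesterol exporter, had 25.4, 38.4, 28.9, 26.5 and 28.4 CPM in healthy nerves and 514, 294, 271 and 268 CPM in injured nerves (log2FC 3.51 ± 0.18, adjusted p = 7.51e-17). *Apoe*, the lipid carrier, had 1040, 1090, 869, 1240 and 1150 CPM against 9070, 6040, 4850 and 6140 CPM (log2FC 2.59 ± 0.23, adjusted p = 2.27e-11). *Plin2*, the coat protein of lipid droplets, had 35.9, 38.6, 33.9, 38.9 and 33.7 CPM against a median of 157 CPM and a highest value of 256 CPM in mouse KO-177 (log2FC 2.28 ± 0.21, adjusted p = 9.01e-11). Healthy nerves differed little from each other in these genes, no injured nerve overlapped with them, and mouse KO-169 had the highest injured value of *Abca1* and *Apoe*. *Gpnmb*, a glycoprotein of foamy macrophages, rose by 3.38 ± 0.32 and *Lpl*, lipoprotein lipase, by 2.36 ± 0.53. The scavenger receptor *Msr1* and the lysosomal proteases *Ctsd* and *Ctsb* rose by 2.48 ± 0.37, 1.82 ± 0.18 and 1.47 ± 0.18. *Spp1*, osteopontin, was not called at 4 wpc (-0.32 ± 0.18, adjusted p = 0.142).

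Most genes of antigen presentation and most chemokine genes were raised too. Of 11 genes of MHC class II presentation 8 were called higher and 1 lower, with a median of 2.37. *Cd74*, the invariant chain, had 83.1 to 166 CPM in healthy nerves and 1170, 561, 316 and 736 CPM in injured nerves (log2FC 2.44 ± 0.49, adjusted p = 7.56e-05). *Ciita*, the transactivator of class II genes, rose by 2.15 ± 0.41. *H2-DMa*, which loads peptides, was called lower at -1.01 ± 0.24, and no gene of the list was called lower without the injured nerve of mouse KO-175 or of mouse KO-177, whereas 2 were without that of mouse KO-169. Of 25 chemokines and receptors 17 were called higher and 1 lower, with a median of 2.28. Their summed level changed little, and the groups overlapped. It was 361 to 460 CPM (mean 405) in healthy nerves and 401 to 539 CPM (mean 486) in injured nerves. *Cxcl16*, a membrane-bound chemokine, had 3.47, 2.78, 2.3, 3.54 and 3.2 CPM against 37.2, 33.2, 22.7 and 36.5 CPM (log2FC 3.4 ± 0.22, adjusted p = 2.67e-14). *Ccl3* and *Ccl8*, which attract monocytes, rose by 5.52 ± 0.56 and 4.88 ± 0.61 from below 0.4 CPM. *Ccl2*, the main signal for CCR2-bearing monocytes, rose less, by 1.53 ± 0.41. *Ackr1*, a chemokine-binding receptor of venules, fell by 1.17 ± 0.21.

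Markers of lymphocytes, mast cells and neutrophils were called higher for 11 of 18 tested genes and lower for 1, with a median of 2.03, at low levels. *Cd4* had 0.234, 0.256, 0.162, 0.173 and 0.347 CPM in healthy nerves and 6.43, 10.7, 5.02 and 8.61 CPM in injured nerves (log2FC 4.97 ± 0.47, adjusted p = 1.02e-10). *Trac*, the constant chain of the T cell receptor, rose by 3.92 ± 0.61 and reached 1.47 to 2.57 CPM. The mast cell genes shown were not called higher. *Kit*, a receptor of mast cells and melanocytes, fell by 1.87 ± 0.42, and *Tpsb2*, a mast cell protease, was at 1.57 ± 0.79 and not called (adjusted p = 0.0912). Every injured nerve still had more *Tpsb2* (17.3 to 37.3 CPM) than every healthy one (2.29 to 13.8 CPM), and it was called with the replicate block. Interferon-stimulated genes moved both ways, with 3 of 21 called higher, 3 lower and a median of -0.02, whose sign changed under several alternatives. *Cxcl10* and *Oas1a* rose by 2.04 ± 0.45 and 1.61 ± 0.32, and *Rsad2* and *Ifit2*, both antiviral effectors, fell by 1.92 ± 0.41 and 1.34 ± 0.24.

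**Figure D3:**
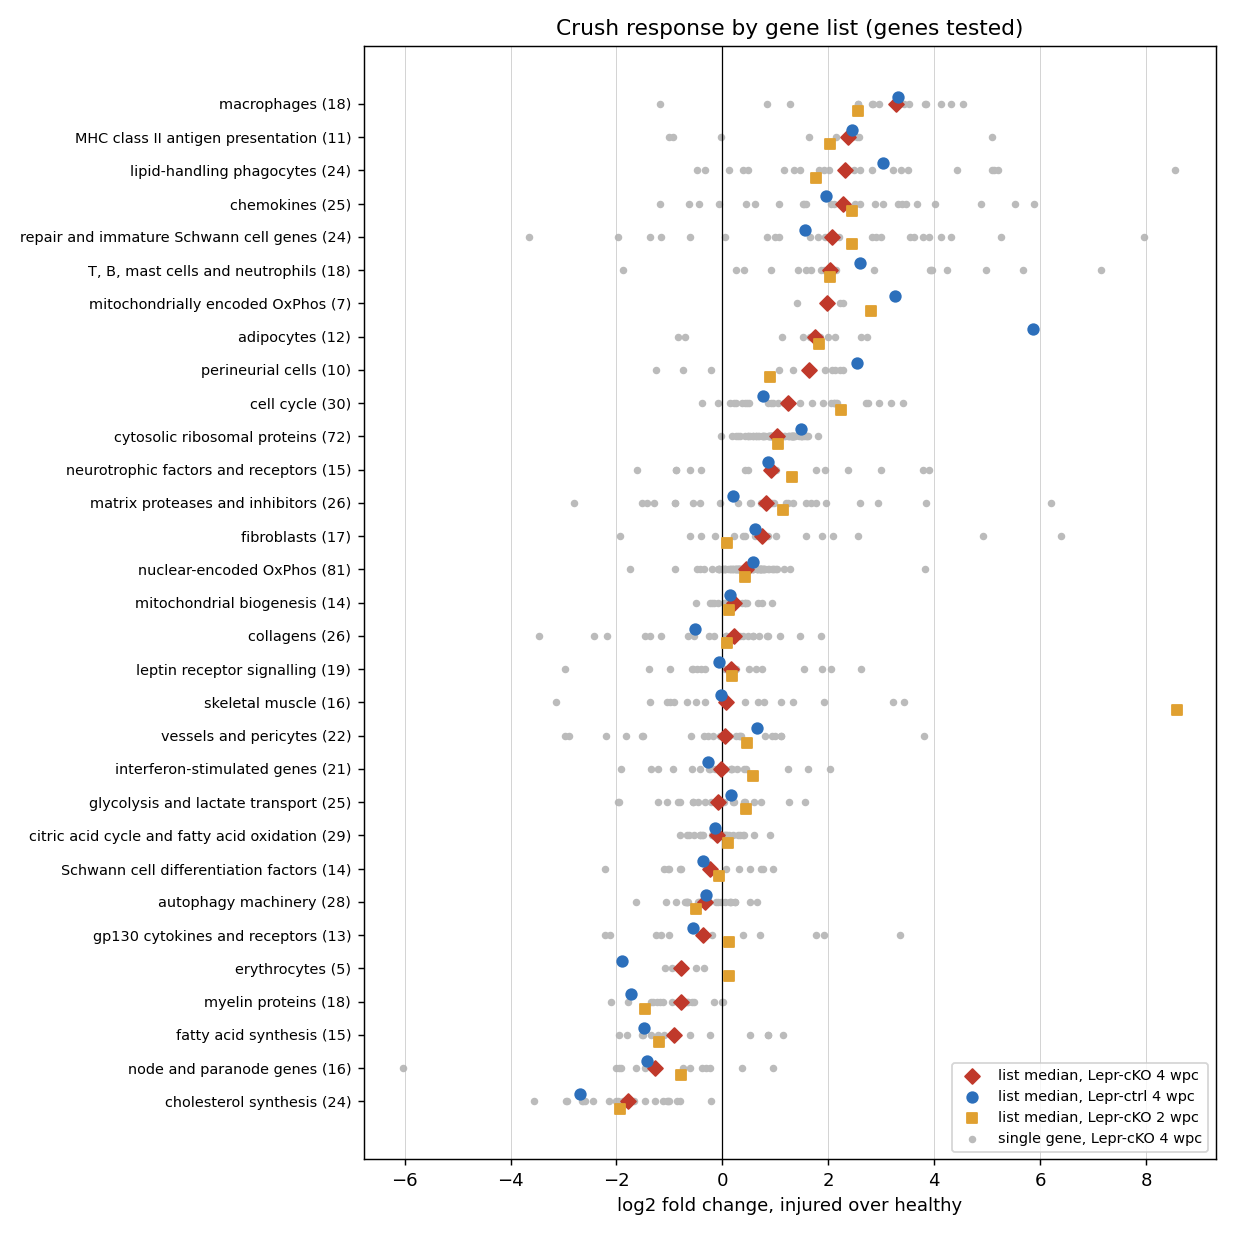
Each row is 1 of 31 gene lists with the number of genes tested in brackets, and the horizontal axis is the log2 fold change of injured over healthy nerves. Grey dots are single genes in *Lepr*-cKO nerves at 4 wpc, and coloured symbols are list medians in the 3 comparisons, from 3.28 for macrophages to -1.78 for cholesterol synthesis in *Lepr*-cKO nerves at 4 wpc. The median of skeletal muscle genes was 8.58 at 2 wpc and 0.06 at 4 wpc.

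The collagens and their modifiers changed in both directions. Of 26 collagen genes 3 were called higher and 6 lower, and the median was 0.22. *Col8a2*, a short-chain collagen, had 117, 95.9, 103, 52.9 and 94 CPM in healthy nerves and 14.3, 5.8, 8.37 and 4.43 CPM in injured nerves (log2FC -3.47 ± 0.36, adjusted p = 9.92e-10). *Col4a1*, of the basal lamina, fell by 1.37 ± 0.28, and *Col12a1* and *Col11a1*, of fibril surfaces and cores, by 2.18 ± 0.29 and 2.43 ± 0.37. *Col16a1* had 245, 265, 257, 264 and 237 CPM against 770, 786, 751 and 476 CPM (log2FC 1.46 ± 0.18, adjusted p = 4.06e-08). *Col8a1* and *Col28a1*, a collagen of peripheral glia, rose by 1.86 ± 0.33 and 1.08 ± 0.22. Without the injured nerve of mouse KO-177, 5 collagens were called higher. Of 26 matrix proteases and inhibitors 9 were called higher and 3 lower, with a median of 0.83, and without the injured nerve of mouse KO-169 the lower ones numbered 6. *Timp1*, an inhibitor of metalloproteinases, rose by 3.85 ± 0.31 and *Mmp12*, the elastase of macrophages, by 6.21 ± 0.87, whereas *Timp3* fell by 2.8 ± 0.39. Against the sign of the median, the summed level of the proteases and inhibitors was lower in injured nerves. It was 3050 to 4170 CPM (mean 3820) in healthy nerves and 1270 to 3420 CPM (mean 2020) in injured nerves.

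Markers of the other cells of the nerve were split. Of 17 fibroblast genes 7 were called higher and 1 lower (median 0.74), with *Wif1*, an inhibitor of WNT proteins, at 6.39 ± 0.56 and *Mfap5*, a microfibril protein, at -1.93 ± 0.31. Of 10 perineurial genes 4 were called higher and 1 lower (median 1.64), and the higher ones were 7 with the mouse as a replicate block, 1 without the healthy nerve of mouse KO-175, and 2 without the healthy nerve of mouse KO-169 or KO-176 or the injured nerve of mouse KO-169 or KO-175. *Cldn1*, the barrier protein of perineurial cells, had 15.8, 5.9, 7.11, 45.9 and 37.4 CPM in healthy nerves and 148, 115, 140 and 32.4 CPM in injured nerves (log2FC 2.28 ± 0.82, adjusted p = 0.0178). The healthy nerves of mice KO-177 and KO-179 and the injured nerve of mouse KO-177 overlapped. Against the sign of the median, the summed level of the perineurial genes was lower in injured nerves. It was 1140 to 1460 CPM (mean 1280) in healthy nerves and 581 to 1160 CPM (mean 879) in injured nerves. Of 22 genes of vessels and pericytes 3 were called higher and 6 lower (median 0.05). *Plvap*, a protein of leaky endothelium, had 1.44, 4.43, 2.3, 2.29 and 5.19 CPM against 63, 17, 29.6 and 69.2 CPM (log2FC 3.81 ± 0.68, adjusted p = 1.63e-05). *Mfsd2a*, a lipid transporter of barrier endothelium, fell by 1.5 ± 0.22, and the pericyte genes *Pdgfrb*, *Rgs5*, *Notch3* and *Kcnj8* by 1.52 ± 0.29, 1.82 ± 0.4, 2.2 ± 0.4 and 2.97 ± 0.55. The summed level of vessel genes was 2730 CPM in the injured nerve of mouse KO-177 and 1320 to 1520 CPM in the others. Without that nerve 1 vessel gene was called higher and the median was -0.39, and without the healthy nerve of mouse KO-179 or any 1 of the other injured nerves 5 were called higher.

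Of 12 adipocyte genes tested, 2 were called higher and none lower, *Pparg*, the regulator of fat cells (2.73 ± 0.55), and *Lipe*, hormone-sensitive lipase (1.12 ± 0.3), and without the injured nerve of mouse KO-177 *Lipe* was not called. *Adipoq*, the defining adipocyte gene, had 0.117, 11.5, 1.17, 1.25 and 7.59 CPM in healthy nerves and 7.38, 0.274, 32.5 and 29.3 CPM in injured nerves. It overlapped between groups, with fat cell transcripts in the injured nerves of mice KO-169, KO-176 and KO-177 and in the healthy nerves of mice KO-175 and KO-179. *Lep*, the gene of leptin itself, followed it with 0.078, 1.03, 0.121, 0.0432 and 0.918 CPM against 0.661, 0, 4.82 and 5.93 CPM (log2FC 2.62 ± 1.58, adjusted p = 0.159). None of 16 skeletal muscle genes and none of 5 erythrocyte genes was called, although 1 muscle gene was called higher without the healthy nerve of mouse KO-177 or the injured nerve of mouse KO-169, or with the replicate block.

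Mitochondrial transcripts rose in injured nerves, and unevenly so. The mRNAs encoded by the mitochondrial genome made up 2.18%, 1.98%, 2.02%, 3.61% and 2% of counts in healthy nerves and 2.79%, 11.1%, 8.78% and 18% in injured nerves. The means were 2.36% ± 0.704 (SD, n = 5) and 10.2% ± 6.3 (SD, n = 4), a difference of 7.81 percentage points (exact permutation test, 2-sided, p = 0.0159). The groups overlapped, since the injured nerve of mouse KO-169 was below the healthy nerve of mouse KO-177. Within the 4 mice with both nerves the share rose in each, by 0.615 to 14.4 points (paired mean 7.72, exact sign-flip test p = 0.125, the smallest possible with 4 pairs). The 13 mitochondrial mRNA genes contributed unequally, because 6 of them had at most 2 counts in any of the 9 libraries and the share rests on the other 7. *Lepr*-ctrl injured nerves at 4 wpc ranged from 15% to 19.1% and healthy ones from 1.64% to 2.14%.

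All 7 tested mitochondrial genes were called higher, with a median log2FC of 1.98. *mt-Nd1*, of complex I, had 2930, 2770, 2740, 4840 and 2750 CPM in healthy nerves and 3830, 17600, 12500 and 28000 CPM in injured nerves (log2FC 2.27 ± 0.43, adjusted p = 3.21e-05). *mt-Co1*, of complex IV, rose by 1.98 ± 0.42 and *mt-Cytb*, of complex III, by 1.98 ± 0.41. *mt-Nd6* (2.23 ± 0.42) lies on the opposite strand from the others, and its reads could not be told apart from antisense reads because the strand setting of the counting is not given. The nuclear genes of oxidative phosphorylation shifted far less. Of 81 tested, 4 were called higher and 1 lower, where 16.8% and 10.8% of all genes were called, and the median was 0.45. Below the fold limit, 70 of the 81 were fitted above 0, and for 29 the injured nerves lay above the healthy nerves without overlap, where 21.0% of all genes did. *Ndufa1*, of complex I, rose by 1.28 ± 0.16 and *Uqcrh*, of complex III, by 1.16 ± 0.15. *Cox6c* (1.03 ± 0.15) and *Atp5e* (1.02 ± 0.17) sat at the fold limit and lost their calls when single libraries were left out. The number of nuclear genes called higher ranged from 2 to 8 as single libraries were left out, with 8 when the injured nerve of mouse KO-169 and 7 when the healthy nerve of mouse KO-177 was dropped, and 2 without the healthy nerve of mouse KO-176 or the injured nerve of mouse KO-175 or KO-177. None was called lower without the injured nerve of mouse KO-177.

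Short genes were shifted upwards as a class. The median log2FC over all tested genes was 0.46 for genes with up to 1000 bases of exon and 0.38, 0.15, -0.06 and -0.23 for the classes up to 2000, 4000, 8000 and more bases. Relative to genes of the same length class the median of the nuclear oxidative phosphorylation genes was 0.1, and this alternative was chosen after seeing the data. The cytosolic ribosomal protein genes, also short, had 38 of 72 called higher and none lower, with a median of 1.04, and 0.72 relative to their length class. Without the injured nerve of mouse KO-177, 25 of them were called. *Rps9* had 170, 158, 158, 201 and 184 CPM in healthy nerves and 339, 617, 404 and 728 CPM in injured nerves. Many processed pseudogenes resemble these genes, so that their counts are uncertain.

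Other metabolic lists stayed near the centre. None of 29 genes of the citric acid cycle and fatty acid oxidation was called, and their median was -0.11. None of 14 regulators of mitochondrial biogenesis was called, with a median of 0.22. Without the healthy nerve of mouse KO-177, 1 gene of the former list was called higher, and without the injured nerve of mouse KO-169 it was 1 higher and 1 lower. Of the latter list 1 gene was called higher without the injured nerve of mouse KO-169 or of mouse KO-177. Of 25 genes of glycolysis and lactate transport 2 were called higher and 4 lower, with a median of -0.08. *Pfkp*, a phosphofructokinase, had 28.6, 31.5, 28.2, 31.6 and 31 CPM in healthy nerves and 88.9, 63.5, 62.3 and 74.3 CPM in injured nerves (log2FC 1.26 ± 0.13, adjusted p = 3.37e-10). *Hk1*, the hexokinase of most tissues, fell by 1.22 ± 0.18, and *Hk2*, its inducible relative, rose by 1.56 ± 0.44. *Pdk4*, which restrains pyruvate oxidation, fell by 1.96 ± 0.61.

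Autophagy, the lysosomal recycling of cell contents, was represented by 28 genes. None was called higher and 2 were called lower, with a median of -0.32. *Atg9a*, a lipid scramblase of the growing autophagosome, had 36.6, 35.5, 36.7, 25.3 and 36.2 CPM in healthy nerves and 17.2, 6.89, 9.34 and 10.2 CPM in injured nerves (log2FC -1.64 ± 0.26, adjusted p = 2.57e-06). *Optn*, a cargo receptor, fell by 1.06 ± 0.12, a call that was lost without the injured nerve of mouse KO-175 (-0.99). Injured nerves lay below healthy nerves without overlap for 13 of the 28 and above them for 2, where 20.9% and 21.0% of all genes did, and 2 of the 28 changed more than 2-fold. *Gabarapl1* and *Nbr1*, an ATG8 protein and a cargo receptor, were at -0.87 ± 0.12 and -0.67 ± 0.1.

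Of 19 genes of leptin receptor signalling, 3 were called higher (*Lepr*, *Socs1* and *Cish*) and 2 lower (*Irs1* and *Pik3r1*), with a median of 0.17 that turned to -0.03 without the injured nerve of mouse KO-169. *Cish* and *Socs1*, feedback inhibitors of cytokine receptors, rose by 2.06 ± 0.4 and 1.54 ± 0.27. *Irs1*, the adaptor that links receptors to PI3-kinase, had 18.4, 44.3, 48.7, 28.3 and 39.3 CPM in healthy nerves and 3.49, 3.34, 5.33 and 6.13 CPM in injured nerves (log2FC -2.98 ± 0.41, adjusted p = 2.26e-07). *Pik3r1*, the regulatory subunit of that kinase, fell by 1.38 ± 0.2. *Stat3* and *Jak2*, the main transducers, were at 0.04 ± 0.1 and -0.48 ± 0.16 and not called. *Socs3*, the classical feedback gene of leptin, was at 0.5 ± 0.22 (adjusted p = 0.0503). In the family of gp130 cytokines 2 of 13 were called higher and 5 lower, with a median of -0.36. *Osm*, oncostatin M of macrophages, rose by 3.35 ± 0.49. *Cntf*, the neurotrophic cytokine of myelinating Schwann cells, had 8.23, 5.9, 7.55, 3.24 and 6.03 CPM against 2.17, 0.438, 1.37 and 1.63 CPM (log2FC -2.12 ± 0.32, adjusted p = 9.23e-07).

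**Figure D4:**
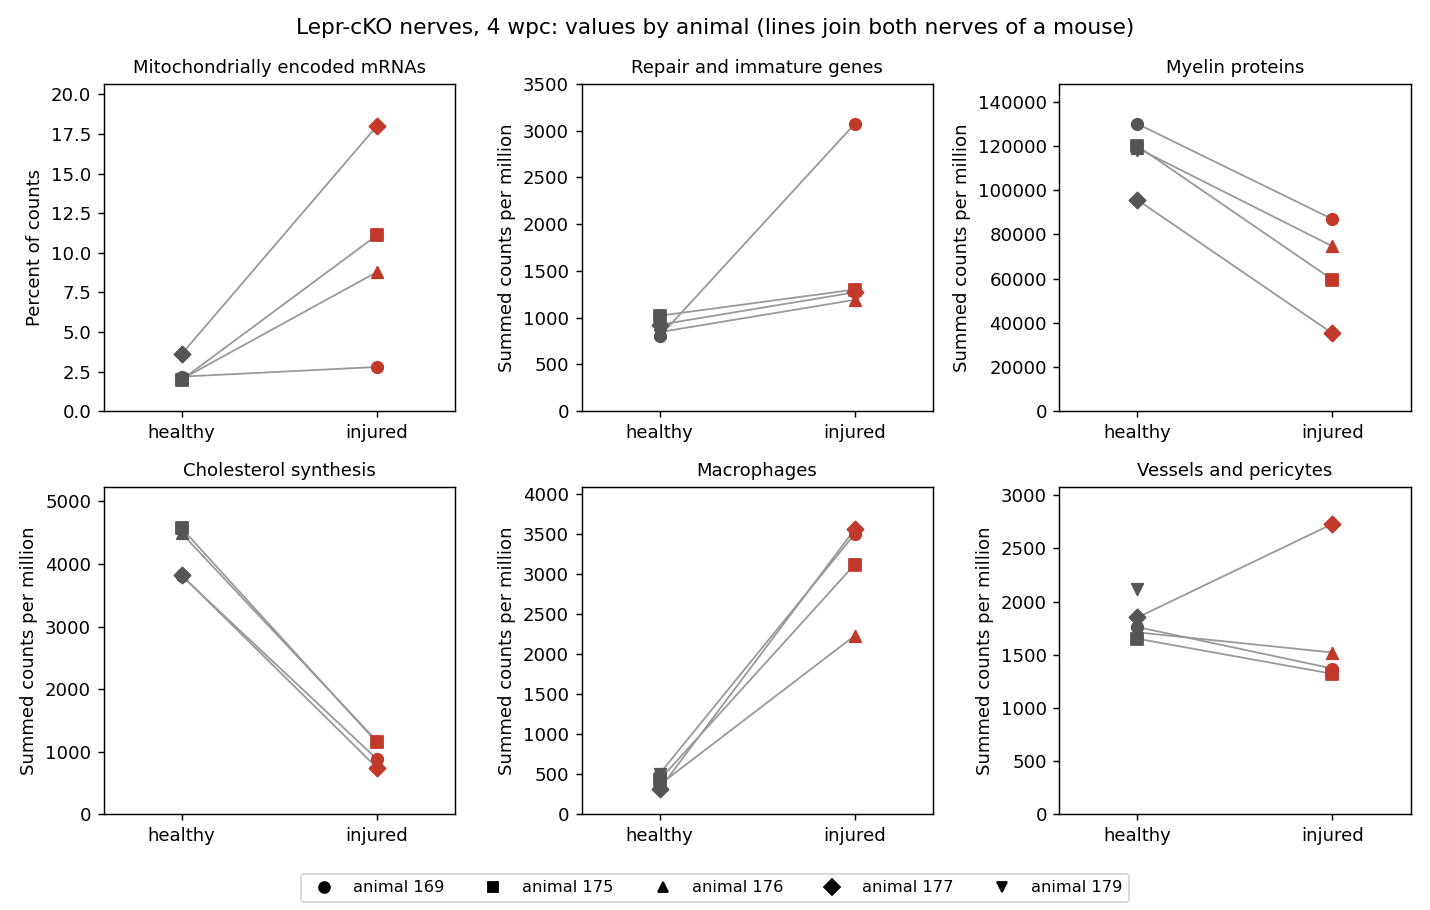
Each panel gives a value per nerve for the *Lepr*-cKO mice at 4 wpc, with a line joining both nerves of a mouse and mouse KO-179 as a lone healthy nerve. The upper left panel is in percent of counts and the others in summed CPM of a gene list. The injured nerve of mouse KO-169 stands apart at 3070 CPM for repair genes and at 2.79% for mitochondrially encoded mRNAs, and that of mouse KO-177 at 2730 CPM for vessel genes.

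The 4 injured nerves were thus not alike. That of mouse KO-169 had the deepest library, the lowest mitochondrial share and the highest summed repair and myelin levels, and that of mouse KO-177 had the shallowest library, the highest mitochondrial share and the lowest summed myelin level. Their part in each result was not tested beyond leaving them out. All 4 mice still showed the response seen in *Lepr*-ctrl mice. Over the 3700 genes called higher in *Lepr*-ctrl nerves at 4 wpc (20.1% of those tested), the median difference between the nerves of a mouse was 1.21, 1.72, 1.55 and 1.55 on the log2 scale. Over the 2930 genes called lower there (15.9%), it was -0.89, -1.39, -1.14 and -1.34. Between 91.4% and 95.8% of the former were above 0 in each mouse, and between 93.2% and 96.8% of the latter below 0. With the mouse as a replicate block, 2885 genes were called higher and 1988 lower.

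Whether deletion of *Lepr* in Schwann cells altered the crush response was asked by the difference between genotypes. At 4 wpc 2663 of the 3094 genes called higher in *Lepr*-cKO nerves (86.1%) were also called higher in *Lepr*-ctrl nerves, which is 72% of the genes called there. Of those called lower 1731 of 1990 (87%) were shared, 59.1% of the *Lepr*-ctrl genes. The test of the difference itself called 0 genes (0% of those tested) in edgeR, with a smallest adjusted p of 0.353, while 2013 genes had an unadjusted p under 0.05. DESeq2 called 4, all with a lower log2FC in *Lepr*-cKO nerves, and these were named after their values were seen. They were *Pck1* (-21.03), *Ces1f* (-17.91) and *Adipoq* (-23.94), which adipocytes express, and *Map7d2* (-1.79). Differences as large as those of the adipocyte genes are not read as sizes of an effect. *Adipoq* also overlapped between injured and healthy *Lepr*-cKO nerves. Without the injured nerve of mouse KO-177 edgeR called 24 genes, 12 in each direction, and without the *Lepr*-ctrl injured nerve of mouse WT-173 it called 4. *Map7d2*, of a microtubule-binding family, had a log2FC of -1.41 ± 0.31 in *Lepr*-cKO and 0.37 in *Lepr*-ctrl nerves, and *Amigo3*, an adhesion molecule, -0.3 ± 0.16 and -1.35. Neither was called by edgeR with all libraries, and *Map7d2* was among the 24 called without the injured nerve of mouse KO-177 (-1.93, adjusted p = 0.0478).

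The fitted differences of the lists leaned in one direction in several cases, below the limit of a call. Unadjusted p under 0.05 was reached by 9 of 18 myelin genes, 12 of 24 cholesterol genes, 12 of 30 cell division genes and 11 of 26 collagens. It was also reached by 7 of 14 Schwann cell differentiation factors and 7 of 15 fatty acid synthesis genes. Each of these genes had a higher log2FC in *Lepr*-cKO nerves. Of all 18442 genes 2013 reached it, counted in both directions. All 7 mitochondrial genes and 27 of 72 ribosomal protein genes reached it with a lower log2FC in *Lepr*-cKO nerves. Genes of a list were measured in the same nerves, so these counts are not separate pieces of evidence. They were not recounted with libraries left out. The median differences were 0.8 for myelin, 0.63 for cholesterol synthesis, 0.55 for cell division and -1.27 for mitochondrial genes. The adipocyte list differed most, by -4.08, with a median log2FC of 5.86 and 10 of 12 genes called higher in *Lepr*-ctrl nerves against 1.74 and 2 in *Lepr*-cKO nerves, and its part in the other differences was not tested. No adjusted p in these lists fell below 0.353. The mitochondrial share of counts was 2.79% to 18% in injured *Lepr*-cKO nerves and 15% to 19.1% in injured *Lepr*-ctrl nerves, so the ranges overlapped. Its difference between the genotypes was not tested, and neither was its part in these lists.

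Between 2 and 4 wpc the response of *Lepr*-cKO nerves changed in fewer genes. The earlier time had 3857 genes called higher (20.9%) and 2473 lower (13.4%). Of the genes higher at 4 wpc, 2635 (85.2%) were higher at 2 wpc too, which is 68.3% of those called then. Of the genes lower at 4 wpc, 1594 (80.1%) were lower at 2 wpc, 64.5% of those called then. The 2 times are different cohorts of mice. In the test of the difference, 0.949% of the tested genes had a higher log2FC at 4 wpc and 0.466% (86 genes) a lower one. Counts of the former ran from 90, without the injured nerve of mouse KO-176, to 277, without the 2 wpc injured nerve of mouse KO-126, and were 116 without the healthy nerve of mouse KO-177. Counts of the latter ran from 29, without the injured nerve of mouse KO-176, to 167, without the injured nerve of mouse KO-169 or the 2 wpc injured nerve of mouse KO-125, and were 51 without the healthy nerve of mouse KO-177 and 139 without the 2 wpc injured nerve of mouse KO-138. With the replicate block they were 200 and 40.

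*Spp1* had 1290, 1320, 1350, 1100 and 1230 CPM in healthy nerves and 1400, 717, 1180 and 743 CPM in injured nerves at 4 wpc, while its log2FC at 2 wpc was -2.14, a difference of 1.82. *Cyp4f14*, a cytochrome of lipid oxidation, went from a log2FC of -3.73 at 2 wpc to -0.66 at 4 wpc. *Cldn14*, a claudin, went from -4.28 to -1.98. Genes with the opposite sign were *Slitrk2*, an adhesion protein of neurons (-0.19 and -2.08), *Pde4b*, a phosphodiesterase of cAMP (1.6 and -0.18), and *Slc52a3*, a riboflavin transporter (1.77 and -0.34). *Pvalb*, parvalbumin, which skeletal muscle holds in quantity, differed by -10.37 along with the skeletal muscle list, of which 16 of 16 genes were called higher at 2 wpc and none at 4 wpc. With the replicate block its difference was -2.37, and without the 2 wpc injured nerve of mouse KO-126 it was -0.92, neither called. Of the 18 myelin genes 1 was called with a higher log2FC at 4 than at 2 wpc, and the median difference of the list was 0.79.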

How the data were processed

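Per the labels and the study's methods, RNA of distal sciatic endoneurium was made into libraries with a TruSeq RNA kit, read as single 50-base reads, demultiplexed with bcl2fastq 2.20.0.422, aligned with STAR 2.5 to GRCm38 and counted per gene with featureCounts 1.5.0-p1. The strand setting and the treatment of reads with several matches are not given in the sources used here. The authors deposited 1 table per library of raw read counts per Ensembl gene, not normalized. Gene coordinates and exon lengths are from GENCODE for GRCm38, and promoters are from RefSeq.

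Groups and mouse numbers were taken from the sample labels. Genes were kept with edgeR's filterByExpr at a minimum count of 10 and a total of 15, which left 18442 genes. Counts of all 39 libraries were scaled by TMM and fitted with edgeR 4.0.16 (limma 3.58.1, R 4.3.3) by the quasi-likelihood method with 1 coefficient per group, and each comparison was a contrast of that fit. Calls needed a Benjamini-Hochberg adjusted p under 0.05 and a log2 fold change beyond 1 in either direction, the limits the study's methods give. Scripts were tested on simulated data. The genes named were *Lepr*, up to 12 in each direction with the largest change among called genes whose libraries do not overlap and whose mean log2 CPM exceeds 3, and from each list up to 4 called members with the lowest p and up to 2 uncalled ones with the highest CPM. Up to 5 per direction with the lowest p were taken for each difference between responses. Further list members were named after their values were seen, as examples of a list. The members and lists were chosen with earlier results of these data known.

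Both nerves of a mouse share its number in the labels, so that the 4 mice with both nerves are pairs. The deviations of both nerves from their group means, over 5000 genes, correlated with r of 0.397, 0.002, 0.408 and 0.235 for mice KO-169, KO-175, KO-176 and KO-177. The study's methods use no block, so it was an alternative, beside DESeq2 1.42.0, its size factors, a filter of 10 counts in every library, no filter, omission of mitochondrial genes, a sex term, only the groups compared, counts thinned to equal depth and each library left out in turn. Depth limits precision through counting error, and p-values cover the spread between these mice. The study gives 4 mice per group, whereas 5 healthy libraries were used here. The *Lepr*-ctrl libraries at 2 wpc entered the fit and no comparison. Some genes of the lists entered every count, median and sum and are not reported here by name.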

Additional observations from a re-analysis of the deposited data

Results flagged for a closer look

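In 12 of the 114 groups of 4 or 5 libraries examined, 1 library lay far from the rest by Dixon's criterion. Chance gives about 1 in 20 for independent values. These groups reuse the same libraries and share genes, so the 12 groups are not set against that rate. The healthy nerve of mouse KO-177 accounted for several of them. Its mitochondrially encoded mRNAs made up 3.61% of counts (1.98% to 2.18% in the other healthy nerves), and those genes summed to 35400 CPM (20900 to 23200). Its collagen genes summed to 9740 CPM (12100 to 12700), its matrix proteases and inhibitors to 3050 CPM (3880 to 4170) and its autophagy genes to 3480 CPM (3980 to 4180). *Zdhhc2* stood at 198 CPM there (294 to 330).

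The injured nerve of mouse KO-169 had 3070 summed CPM of repair and immature Schwann cell genes (1190 to 1300 in the other injured nerves), 120 CPM of *Sema4f* (55.1 to 56.1), 632 CPM of *Postn* (189 to 227) and 7.57 CPM of *Dpysl5* (3.65 to 4.04). The injured nerve of mouse KO-177 had 2730 summed CPM of vessel and pericyte genes (1320 to 1520). The healthy nerve of mouse KO-179 had 1.19 CPM of *Atp6v0d2* (0.888 to 0.976), a small difference at a low level.

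The crush response of *Lepr*-cKO nerves differed between 4 and 2 wpc by edgeR's test of the difference for 10 named genes. The log2FC was higher at 4 wpc for *A330015K06Rik* by 2.93 (-3.31 at 4 wpc and -6.24 at 2 wpc), for *Cyp4f14* by 3.06 (-0.66 and -3.73), for *Spp1* by 1.82 (-0.32 and -2.14), for *Cldn14* by 2.3 (-1.98 and -4.28) and for *D630003M21Rik* by 1.8 (-1.97 and -3.77). The log2FC at 4 wpc minus that at 2 wpc was -1.89 for *Slitrk2*, -1.78 for *Pde4b*, -2.11 for *Slc52a3*, -10.37 for *Pvalb* and -0.73 for *Polh*, a DNA polymerase (-0.04 and 0.68). *Polh* passed the adjusted p but not the fold limit.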

How the results depend on the processing

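The counts of genes called higher and lower after crush in *Lepr*-cKO nerves at 4 wpc (3094 and 1990) became 1563 and 1090 when 10 counts were required in each of the 39 libraries, since fewer genes were tested, and 5450 and 4757 without the fold limit. Left-out libraries gave 2832 to 3187 and 1828 to 2297. For the genotype difference at 4 wpc (0 genes, smallest adjusted p 0.353), DESeq2 called 4, and leaving out single libraries gave 0 to 24 calls. The genes lower in the time difference (86) became 53 with 10 counts in each library, 29 with only the groups compared, 40 with the replicate block and 48 with thinned counts, and ran from 29 to 167 as libraries were left out. Those higher ran from 90 to 277. The cause was not tested. The mitochondrial share difference of 7.81 points was 7.72 in the paired comparison with the mouse as replicate block (exact sign-flip p = 0.125, where no lower p is possible), and 5.19 without the injured nerve of mouse KO-177 to 10.3 without that of mouse KO-169.

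List medians changed sign as follows. Interferon-stimulated genes (-0.02) stood at 0.01 with 10 counts in each library, at 0.05 with thinned counts and at -0.16 to 0.28 with libraries left out. With 10 counts in each library, neurotrophic factors were at -0.59 over 7 remaining genes and lymphocyte, mast cell and neutrophil genes at -1.85 over 1. Vessel genes (0.05) were at -0.03 with the replicate block and -0.39 to 0.14 with libraries left out, and leptin receptor signalling (0.17) at -0.03 to 0.21. Of 121 called genes that the naming rule gave, 112 kept the call in every setting that tested them, the replicate block included. *Atp5e*, *Cox6c*, *Egr2*, *Ldhb*, *Lif*, *Lipe*, *Moxd1*, *Ntn4* and *Optn* lost it in at least 1 setting. Some named genes were not tested with 10 counts in each library, in DESeq2 or with only the groups compared. A gene left untested in a setting could not lose its call there, so its call was not checked in that setting. With the replicate block *Timp2* (-1.01) and *Tpsb2* (1.73) gained a call, the difference of *Pvalb* over time lost it, and no other call of a named gene changed. Genes of low counts in the shallower injured libraries limit what can be called.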
